A study of Homo sapiens with 48 samples.

Results

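The comparison concerns 22Rv1 cells kept for 24 h at 37 °C in 1% O2, set against 22Rv1 cells kept in normoxia (95% air) as the control of that oxygen level. 22Rv1 is a human prostate cancer cell line that came from a subline of the CWR22R xenograft, per the labels, and it was grown in serum-supplemented RPMI-1640. There were 4 such samples out of 48 in the series, 2 replicates in hypoxia and 2 in normoxia, chosen by the titles and column names. The labels do not say whether the 2 replicates were separate cultures, so the scatter between replicates can be technical. Every p-value sets a difference against the spread within groups pooled over all 48 arrays of the series, not over these 4 alone. The other samples used were PC-3 cells, a human prostate cancer line from a bone metastasis, at 1% O2 and in their own normoxia (4 samples), and 22Rv1 cells at 2% and at 0.5% O2, each level with normoxia samples of its own (4 samples per level). The 22Rv1 samples at 5%, 0.2% and 0% O2 with their own normoxia samples (4 per level) were used for the plot of list medians by oxygen level and, through their normoxia samples, for a check of the controls. Total RNA of whole cultures was hybridized to Illumina bead arrays, and values are normalized log2 intensities, on which a difference of 1 is a doubling. Such levels compare samples for a gene and not genes with each other.

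Cells sense oxygen through prolyl hydroxylases that mark the alpha subunits of hypoxia-inducible factor (HIF) for destruction while oxygen is plentiful. When oxygen falls, the alpha subunits persist, pair with ARNT and bind ACGTG or GCGTG letters near genes of glucose use, vessel growth, pH control and mitochondrial removal. In prostate tumours, low oxygen is a known feature of poorly perfused regions, and severe hypoxia is known to slow DNA synthesis.

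Between 14687 and 15851 of 47323 probes were detected on the 4 arrays (detection p under 0.01), and their median intensity lay between 99.7 and 105. The 10 measured 22Rv1 marker genes out of 11 listed, among them the prostate genes KLK2 and HOXB13, were detected on all 4 arrays, whereas KLK3 did not pass the filter. Of these markers 6 were also detected in PC-3 normoxia, so they do not set the lines apart by detection. HOXB13 had a mean of 8.80 in PC-3 normoxia and 8.69 in 22Rv1 normoxia, whereas KLK2 was not detected in PC-3 normoxia. Of 11 PC-3 marker genes 8 were detected on at least 1 of the 4 arrays, and AXL, PLAU and TGFBI on none. Of 6 measured blood and stromal markers LUM, PECAM1 and LYZ were detected on none of the 4 arrays, and CD68, a lysosomal protein of macrophages and other cells, on all 4, at 7.80 and 7.82 against 7.48 and 7.75. Labels of 2 further arrays were in doubt, hypoxia and normoxia replicate 2 of 22Rv1 at 0.2% O2, which stand exchanged between the 2 deposited tables. With the raw labels used here, core HIF targets had a median difference of 2.65 at 0.2%, beside 2.62 at 1% and 3.05 at 0.5%. Which labels are right was not tested. Those arrays are not among the 4, but they enter the shared estimate of the spread, and counts without them follow below.

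At 1% O2, 1224 genes were higher and 1165 lower than in normoxia out of 16438 tested, which is 14.5% of the genes (limma, Benjamini-Hochberg adjusted p under 0.05). The higher calls made up 7.45% and the lower calls 7.09% of the genes tested. The same shares are the background for every list count below. Rises were larger than falls: 391 called genes were at least 2-fold higher and 161 at least 2-fold lower, and the median over all genes was -0.01. The arrays of the 2 groups did not overlap in 8985 genes (54.7%), so that separation alone says little about a single gene. The largest rises were in genes of the HIF response, in MT3 and in HLA class I genes, and the largest falls in genes of DNA replication, the start of S phase and chromatin assembly. With the replicate number as a block 3944 genes were called, with the 22Rv1 arrays at 0.2% O2 left out 2752, and with the labels of the 2 doubted arrays exchanged 1706. Leaving out 1 of the 4 arrays gave 1079 genes without normoxia replicate 1, 1149 without hypoxia replicate 2, 1487 without normoxia replicate 2 and 1751 without hypoxia replicate 1.

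**Figure D1:**
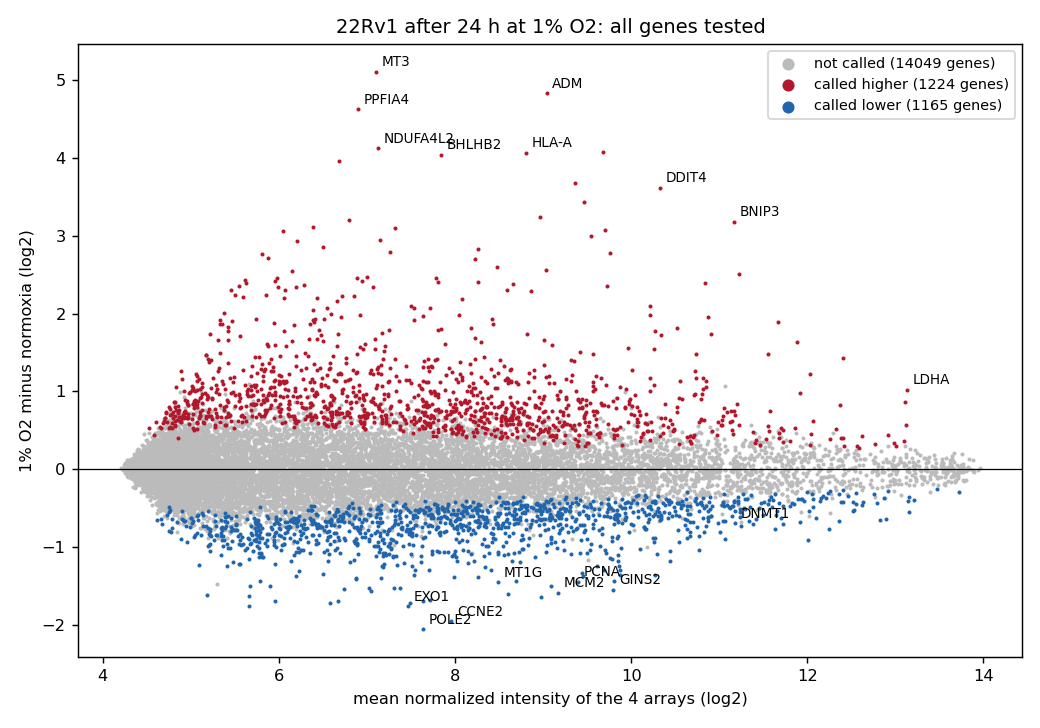
Difference between 1% O2 and normoxia (log2, vertical) against the mean normalized intensity of the 4 arrays (log2, horizontal) for each of the 16438 genes tested in 22Rv1. Red points are the 1224 genes called higher and blue points the 1165 called lower. MT3 and ADM stand highest, at 5.10 and 4.82, and POLE2 lowest, at -2.05.

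HIF subunits and their sensors were measured for 12 of 13 listed genes, of which 3 were higher and 1 lower. EGLN1, the prolyl hydroxylase that marks HIF alpha subunits and is itself a HIF target, stood at 8.09 and 7.81 on the 1% O2 arrays against 6.50 and 6.38 on the normoxia arrays. Both hypoxia arrays lay above both controls, and EGLN1 rose by 1.52 ± 0.23 (log2, SE of the fit, 2 arrays per group, limma adjusted p 1.38e-05). CITED2, which competes with HIF for the coactivator p300, rose by 1.05 ± 0.20 (limma adjusted p 2.83e-04). SIAH2, a ubiquitin ligase that acts on prolyl hydroxylases, rose by 0.60 (limma adjusted p 0.0386). HIF1A, the oxygen-regulated subunit, stood at 6.13 and 6.25 on the 1% O2 arrays against 7.01 and 6.70 on the normoxia arrays and fell by 0.66 (limma adjusted p 0.0313). The HIF1A difference rests on the brightest probe, since its other 2 probes differed by -0.03 and -0.11. SIAH2 and HIF1A lost the call without single arrays and under median centring, which left 1 higher and 0 lower genes of the list. EPAS1, ARNT, ARNT2, VHL, EGLN2, SIAH1 and HIF1AN were not called, with differences between -0.10 and 0.24, HIF3A was not detected on the 4 arrays, and EGLN3 did not pass the filter.

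Of 22 listed core HIF targets 20 were measured, and 19 of them were higher and none lower (7.45% of all genes tested were higher). The median difference of the 20 was 2.62. ADM, which encodes the vasodilator peptide adrenomedullin, stood at 11.59 and 11.31 on the 1% O2 arrays against 6.86 and 6.40 on the normoxia arrays. That was 28.3-fold higher, or 4.82 ± 0.36 on the log2 scale (limma adjusted p 1.42e-11), with no overlap between the groups. PFKFB4, a bifunctional enzyme that sets the level of the glycolytic activator fructose-2,6-bisphosphate, stood at 11.66 and 11.78 on the 1% O2 arrays against 7.70 and 7.60 on the normoxia arrays. It was 16.8-fold higher (4.07 ± 0.22 log2, limma adjusted p 6.66e-15). BHLHB2 (now BHLHE40), a transcriptional repressor of the clock and of metabolism, stood at 9.96 and 9.76 on the 1% O2 arrays against 5.92 and 5.72 on the normoxia arrays and was 16.4-fold higher. Both groups were even, and no hypoxia value came near a control value in any of the 3 genes.

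The other 16 core targets that rose did so by less. DDIT4, an inhibitor of mTORC1 signalling, stood at 12.15 and 12.12 against 8.45 and 8.60, a difference of 3.61 ± 0.31. NDRG1, a stress-response gene that androgen also induces, rose by 3.67 ± 0.35, and ANGPTL4, an inhibitor of lipoprotein lipase, by 3.07 ± 0.37. Other ANGPTL4 probes rose by 1.42 and 0.70. VEGFA, the main angiogenic factor, stood at 8.89 and 9.12 against 6.57 and 6.63 and SLC2A1, the glucose transporter GLUT1, at 9.77 and 9.71 against 7.39 and 7.49, with rises of 2.41 and 2.30. In each of these genes both hypoxia arrays exceeded both controls, and the groups did not overlap in 54.7% of all genes tested. ANKRD37, at 8.72 and 8.61 against 4.90 and 4.53, had no detected signal in normoxia. At 1% O2 it was at least 12.1-fold higher, where a bound sets the hypoxia mean against the lowest detected signal of each normoxia array. LDHA, which makes lactate from pyruvate, stood at 13.54 and 13.75 against 12.67 and 12.57 and rose by 1.02 ± 0.08. That was the smallest rise among the 19 by the probes used, and other LDHA probes rose by 1.35 and 1.54. FAM162A was the least even, at 8.27 and 9.24 against 6.45 and 6.91, and lost its call without normoxia replicate 1 or without hypoxia replicate 2. MXI1 lost its call without normoxia replicate 1. CA9, the carbonic anhydrase often used as a hypoxia marker, was not detected on any of the 4 arrays, and EGLN3 and PDK1 did not pass the filter.

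**Figure D2:**
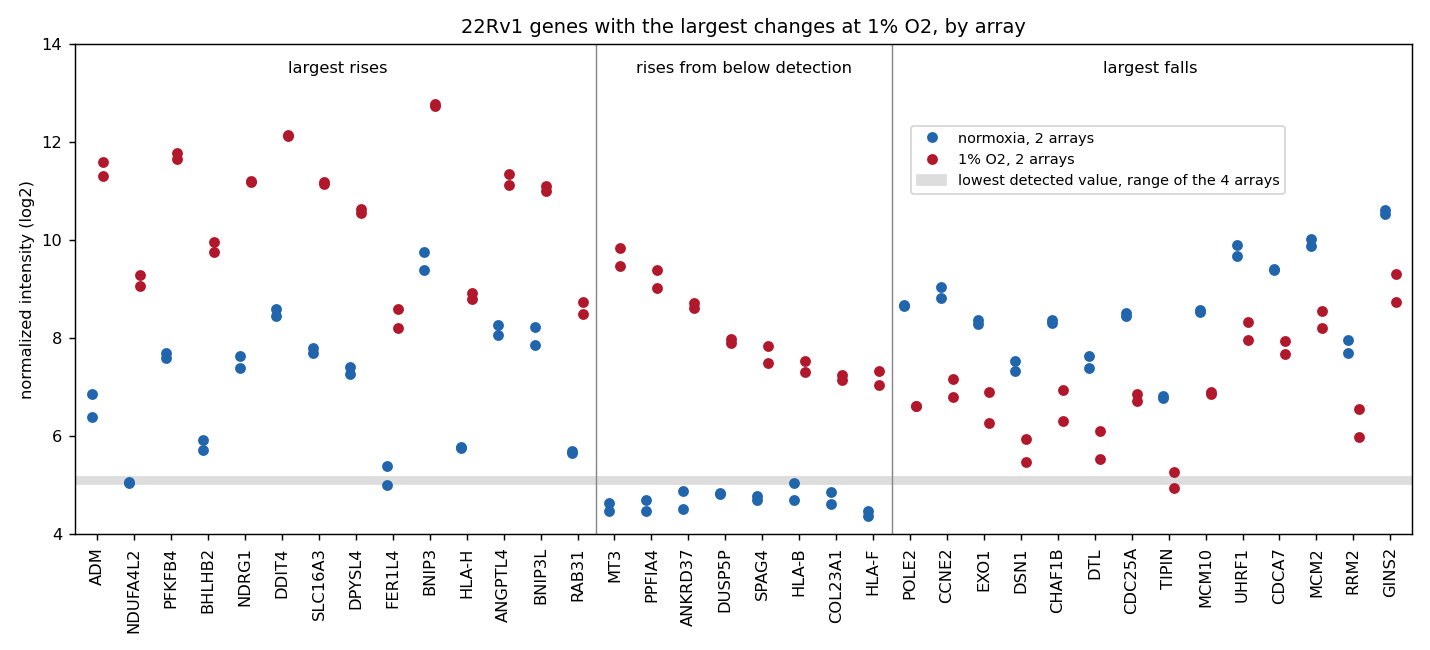
Normalized intensity (log2) on the 2 normoxia arrays (blue) and the 2 arrays at 1% O2 (red) of 22Rv1 for 14 of the largest rises, 8 rises from below detection and 14 of the largest falls. The grey band is the range of the lowest detected value on the 4 arrays. The genes were picked as large changes, and the 2 groups do not overlap in any of them, nor in 54.7% of all genes tested. MT3 goes from 4.64 and 4.47 to 9.84 and 9.47.

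Promoter letters of 6 strongly raised genes are shown because they can be read beside the HIF core. Each line gives the 250 bases before the gene start from the RefSeq table (GRCh38.p14), 5′ to 3′, and capitals mark ACGTG or GCGTG on either strand, so that CACGT and CACGC are also capitals.
ADM (chr11:10304823-10305072, plus strand): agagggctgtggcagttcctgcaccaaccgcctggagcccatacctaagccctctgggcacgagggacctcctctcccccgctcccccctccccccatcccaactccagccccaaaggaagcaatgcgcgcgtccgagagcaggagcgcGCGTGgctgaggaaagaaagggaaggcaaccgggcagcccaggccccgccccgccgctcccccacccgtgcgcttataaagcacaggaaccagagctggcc
PFKFB4 (chr3:48556804-48557053, minus strand): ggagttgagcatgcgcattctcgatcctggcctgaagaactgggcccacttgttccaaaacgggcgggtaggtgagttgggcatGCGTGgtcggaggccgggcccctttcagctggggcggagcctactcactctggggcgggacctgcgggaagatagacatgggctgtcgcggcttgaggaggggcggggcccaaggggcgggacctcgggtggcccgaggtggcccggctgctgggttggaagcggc
NDUFA4L2 (chr12:57240763-57241012, minus strand): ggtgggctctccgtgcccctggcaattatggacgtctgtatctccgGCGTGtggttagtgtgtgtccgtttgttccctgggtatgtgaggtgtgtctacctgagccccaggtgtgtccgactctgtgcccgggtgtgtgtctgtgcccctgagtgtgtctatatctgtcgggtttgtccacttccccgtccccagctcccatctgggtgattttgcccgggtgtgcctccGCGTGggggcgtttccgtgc
BHLHB2 (chr3:4979187-4979436, plus strand): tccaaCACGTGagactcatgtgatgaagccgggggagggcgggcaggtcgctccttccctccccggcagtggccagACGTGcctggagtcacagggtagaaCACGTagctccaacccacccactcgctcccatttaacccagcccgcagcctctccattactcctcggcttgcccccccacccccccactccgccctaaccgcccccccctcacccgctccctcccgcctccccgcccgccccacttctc
BNIP3 (chr10:131981924-131982173, minus strand): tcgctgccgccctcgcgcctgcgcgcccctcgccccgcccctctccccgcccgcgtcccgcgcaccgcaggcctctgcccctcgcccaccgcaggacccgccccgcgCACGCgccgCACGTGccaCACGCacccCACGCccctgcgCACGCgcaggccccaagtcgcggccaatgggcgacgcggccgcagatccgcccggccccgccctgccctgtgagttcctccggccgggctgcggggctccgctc
ANKRD37 (chr4:185396591-185396840, plus strand): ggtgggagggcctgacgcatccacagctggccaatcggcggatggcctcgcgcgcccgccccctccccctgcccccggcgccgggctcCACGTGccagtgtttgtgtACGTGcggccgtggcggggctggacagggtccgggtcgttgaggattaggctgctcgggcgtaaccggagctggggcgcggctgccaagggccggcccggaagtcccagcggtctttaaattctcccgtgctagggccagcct
BNIP3 holds 6 matches, 5 of them in the stretch from 143 to 112 bases before the start, and counting CACGTG once on each strand. Of the 19 core targets that rose, 15 had a promoter in the table and 13 of these (86.7%) held a match. Among all 27305 promoters of the table the share was 43.1%, and among the 10074 tested genes matched by symbol it was 56.7%. The share among the 842 matched higher genes was 56.1% and among the 872 matched lower genes 61.7%. A match describes letters and no binding was measured.

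Secreted factors rose in 9 of 19 measured genes out of 22 listed, beside 7.45% of all genes tested. None fell, and their median was 0.95. Besides ADM, ANGPTL4 and VEGFA, the list held VEGFB, a relative of VEGFA, at 9.96 and 10.13 against 8.59 and 8.72 (rise 1.39 ± 0.11). GDF15, a stress cytokine of the TGF-beta family, stood at 9.30 and 9.42 against 7.67 and 7.32 and rose by 1.87 ± 0.45. Both genes had every hypoxia array above every control, and the groups did not overlap in 54.7% of all genes tested. FGF11 and STC1, the latter a hormone of calcium and phosphate balance, were detected only in hypoxia among the 4 arrays, at least 3.76-fold and 2.37-fold higher. STC2 and EDN1, which encodes the vasoconstrictor endothelin-1, rose by 0.95 and 0.94. IGFBP3 and IGFBP5 differed by 1.08 and 0.99 without passing the test (limma adjusted p 0.163 and 0.0767), and PGF, VEGFC and TGFA were not detected.

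Glucose uptake and glycolysis changed in nearly every step. Of 24 listed genes 22 were measured, 18 were higher and none lower, with a median of 1.36. At the entry, HK2, the inducible hexokinase, stood at 9.76 and 9.40 on the 1% O2 arrays against 7.08 and 6.67 on the normoxia arrays and rose by 2.71 ± 0.27 (limma adjusted p 5.69e-09), while HK1, the constitutive form, rose by 0.64. A second HK2 probe, also detected in both groups, rose by 1.12. PFKFB3, a second bifunctional enzyme beside PFKFB4, rose 6.82-fold. Of the phosphofructokinase subunits PFKP and PFKL rose by 1.98 and 1.18, while PFKM differed by 0.07 and was not called. Further down, ALDOC rose by 2.50 and ALDOA by 1.23, PGK1 by 1.88, ENO2 by 1.98 and ENO1 by 0.87, PKM2 (now PKM) by 1.56 and GPI by 1.48. GAPDH, often taken as a reference gene, differed by 0.14 (limma adjusted p 0.459), and LDHB by -0.18. At the exit, SLC16A3, the lactate exporter MCT4, stood at 11.15 and 11.20 on the 1% O2 arrays against 7.70 and 7.80 on the normoxia arrays, 10.8-fold higher (3.43 ± 0.19 log2, limma adjusted p 1.36e-14).

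Glycogen genes followed in 7 of 13 measured members (15 listed), beside 7.45% of all genes tested, with none lower and a median of 0.82. GBE1, the branching enzyme, stood at 9.59 and 9.18 against 7.60 and 7.32 and rose by 1.92 ± 0.20. GYS1, glycogen synthase of muscle type, rose by 1.20, and the phosphorylases PYGL and PYGB, which break glycogen down, rose by 1.36 and 0.82. Synthesis and breakdown genes were thus both among the higher ones, together with PGM1 and PPP1R3E at 1.00 and 1.28, and STBD1 at 1.07, whose call was lost without any of 3 single arrays. UGP2, PGM2 and GYG1 differed by -0.49 to -0.03 and were not called.

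At the pyruvate gate and in mitochondria the changes went both ways, 3 higher and 3 lower of 17 measured genes (20 listed). The shares over all genes tested were 7.45% higher and 7.09% lower. NDUFA4L2 (now COXFA4L2), a HIF-induced paralogue of the cytochrome oxidase subunit NDUFA4, stood at 9.07 and 9.29 on the 1% O2 arrays against 5.05 and 5.08 on the normoxia arrays. It was detected on 1 of 2 normoxia arrays and was 17.4-fold higher (4.12 ± 0.29 log2, limma adjusted p 4.61e-12). NDUFA4 itself stood at 12.23 and 12.32 against 12.80 and 12.79 and fell by 0.52 (limma adjusted p 0.00146). PDK4, a kinase that switches pyruvate dehydrogenase off, stood at 7.71 and 7.95 against 5.62 and 5.60 and rose by 2.22 ± 0.40. LONP1, the mitochondrial protease, rose by 0.60, and ISCU, the iron-sulfur scaffold, and BRP44L (now MPC1), a mitochondrial pyruvate carrier subunit, fell by 0.52 each. LONP1, NDUFA4 and ISCU lost the call under median centring, which left 0 lower genes, and with the replicate block 5 genes were lower. Without hypoxia replicate 2 there was 1 lower gene. The pyruvate dehydrogenase subunits PDHA1 and PDHB differed by -0.03 and -0.31 and were not called. Among 19 measured citrate cycle and respiratory control genes (20 listed) IDH2 was higher (0.81) and TFAM, which maintains mitochondrial DNA, lower (-0.74). That was no larger a share than the 14.5% called among all genes tested. Under the replicate block 7 of these genes were lower. The IDH2 call was lost without any one of the 4 arrays and under median centring.

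Mitophagy receptors stood out within the autophagy list. Of its 18 measured genes (19 listed) 5 were higher, beside 7.45% of all genes tested, and none was lower. BNIP3 stood at 12.73 and 12.79 on the 1% O2 arrays against 9.76 and 9.39 on the normoxia arrays, 9.04-fold higher (3.18 ± 0.17 log2, limma adjusted p 3.71e-15), and BNIP3L (NIX) at 11.10 and 10.9997 against 8.23 and 7.87 (limma adjusted p 1.08e-11). Both proteins tether mitochondria to the autophagy machinery. MAP1LC3B, ATG9A and ULK1 rose by 0.74, 0.64 and 0.49, and all 3 lost the call under median centring. Without normoxia replicate 1 or hypoxia replicate 2 the list had 3 higher genes. SQSTM1, BECN1 and PINK1 differed by 0.00, -0.08 and 0.40 and were not called.

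For pH control only SLC16A3 and ATP6V1B1, a proton pump subunit at 6.20 and 6.06 against 5.31 and 5.31, were called among 9 measured genes (12 listed). Both were higher, beside 7.45% of all genes tested. CA12 and BSG differed by 0.52 and 0.28 and did not pass. Lipid storage genes rose in 6 of 18 measured members (20 listed), and none fell. PLIN2, the coat protein of lipid droplets, stood at 7.96 and 7.31 against 6.27 and 6.03 and rose by 1.48 ± 0.19. VLDLR, a receptor for lipoprotein uptake, rose by 1.31 and C7orf68 (now HILPDA), an inhibitor of lipolysis, by 1.27. AGPAT2, PNPLA2 and LPIN1 rose by 0.92, 0.73 and 0.57 and lost the call under median centring, which left 3 higher genes. With the replicate block 1 gene each turned lower in the lipid storage, glycogen, glycolysis and autophagy lists.

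Sterol and fatty acid synthesis went the other way, with 8 of 26 measured genes lower and 1 higher and a median of -0.17. MVK, mevalonate kinase, stood at 5.59 and 5.73 against 6.75 and 6.70 and fell by 1.06 (limma adjusted p 0.00337). HMGCS1, SQLE, NSDHL and SC5DL (now SC5D) fell by 0.88, 0.59, 0.69 and 0.64, and ACACA by 0.44. The one higher member was INSIG2, which retains the sterol sensor SCAP in the endoplasmic reticulum, at 7.34 and 7.36 against 5.33 and 5.81 (1.78 ± 0.22). SREBF1, SREBF2 and FASN differed by 0.55, 0.11 and -0.14 and were not called. Without single arrays 3 to 6 genes were lower, with 3 without hypoxia replicate 2 and 4 without normoxia replicate 1, the arrays without which HMGCS1 lost its call. Median centring gave 5 lower, and the replicate block 12 lower and 3 higher.

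Transcriptional repressors and the MYC network held 9 higher genes and none lower among 18 measured (19 listed), with a median of 0.53. BHLHB2 led them, followed by ZNF395 at 9.77 and 9.59 against 8.09 and 7.80 (1.73 ± 0.27). The MYC antagonists MXI1, MXD4 and MNT rose by 1.19, 0.85 and 0.71, and MYC itself by 0.42. The Notch target HEY1 and ID2, an inhibitor of helix-loop-helix factors, rose by 0.84 and 0.90. Leaving out single arrays left 2 to 6 higher genes, and median centring left 4. C5orf41 (now CREBRF), undetected in normoxia, was at least 1.94-fold higher. Of 14 measured clock genes (16 listed) C1orf51 (now CIART), a repressor of the clock, rose by 1.79 ± 0.20 and DBP by 0.99 ± 0.28. CLOCK, ARNTL (now BMAL1), PER1, PER2 and the CRY genes were not called. The share called was near the 14.5% of all genes tested. Without normoxia replicate 1, without hypoxia replicate 2 and under median centring 1 clock gene was higher.

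Histone demethylases of the Jumonji family, which need oxygen and 2-oxoglutarate, were higher in 5 of 16 measured demethylase genes (19 listed). None was lower, and 7.45% of all genes tested were higher. JMJD1A (now KDM3A) stood at 7.36 and 7.58 on the 1% O2 arrays against 4.72 and 5.49 on the normoxia arrays and rose by 2.37 ± 0.37 (limma adjusted p 2.34e-05). JHDM1D (now KDM7A) rose by 1.93, KDM5B by 1.66, JMJD2B (now KDM4B) by 1.06 and KDM6B by 1.00. JMJD2B lost its call without hypoxia replicate 2 or normoxia replicate 1, and KDM6B without any of 3 single arrays, and the count was 3 without hypoxia replicate 2. JMJD2C (now KDM4C) differed by 0.96 and did not pass (limma adjusted p 0.0549).

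Collagen-modifying enzymes were higher in 5 of 13 measured genes (15 listed), beside 7.45% of all genes tested, and none was lower. The prolyl hydroxylase subunits P4HA1 and P4HA2 stood at 9.41 and 9.93 against 6.64 and 7.05 and at 8.65 and 8.67 against 5.72 and 6.02, with rises of 2.83 ± 0.27 and 2.79 ± 0.25. The lysyl hydroxylases PLOD1 and PLOD2 rose by 2.09 and 2.35, and LOX, which crosslinks collagen, was undetected in normoxia and at least 3.37-fold higher. P4HB, PLOD3, LEPRE1 (now P3H1) and the 3 measured LOX-like genes differed by -0.19 to 0.27 and were not called.

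Metallothioneins, small proteins that bind zinc and copper, moved in opposite directions. MT3, the isoform known from brain, was detected on neither normoxia array and on both hypoxia arrays, at 9.84 and 9.47 on the 1% O2 arrays against 4.64 and 4.47 on the normoxia arrays. It was at least 24.0-fold higher, the highest such bound at 1% O2 (limma adjusted p 2.55e-19). Of 12 measured genes (14 listed) 7 were lower, and the median was -0.89. MT1G went from 9.32 and 9.09 to 7.91 and 7.62 (down by 1.45 ± 0.33). MT1E fell by 1.14, MT1X by 1.06, MT1F by 0.97, MT2A by 0.91, MT1A by 0.74 and the zinc exporter SLC30A1 by 0.88. In each of these 7 called genes both hypoxia arrays lay below both controls, and the groups did not overlap in 54.7% of all genes tested. MT1H, undetected in hypoxia, did not pass (limma adjusted p 0.07). MTF1, the zinc-sensing activator of the family, differed by -0.23 (limma adjusted p 0.526). MT1 genes are near-identical in sequence, so that the values of single MT1 members are uncertain. MT1F lost its call without any one of the 4 arrays and MT1E without normoxia replicate 1. The count of lower genes was 4 without normoxia replicate 1 or hypoxia replicate 2.

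Of the iron genes 2 of 12 and of the NRF2 and glutathione genes 3 of 18 were called, near the 14.5% of all genes tested. FTL, the ferritin light chain, stood at 12.31 and 12.51 against 11.51 and 11.34 and rose by 0.98 ± 0.11 (limma adjusted p 4.09e-08), while FTH1 differed by 0.17 and TFRC, the transferrin receptor, by -0.03, neither called. ACO1 was the second of the 2 higher iron genes (15 listed), at 0.42, and with any one of the 4 arrays left out or under median centring the count was 1. The 3 NRF2 and glutathione genes were lower. GCLM, which controls glutathione synthesis, fell by 1.01 ± 0.22, and GSR and NFE2L2, the gene of NRF2 itself, by 0.62 and 0.60. NFE2L2 lost its call without any one of the 4 arrays and under median centring, GSR without normoxia replicate 1 or hypoxia replicate 2, and GCLM without normoxia replicate 1. Leaving out that array gave 0 lower genes, leaving out each of the others 1 or 2, and the replicate block 6.

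HLA class I genes, which present peptides to T cells, were among the largest rises. HLA-H, a pseudogene of the family, stood at 8.92 and 8.81 on the 1% O2 arrays against 5.78 and 5.76 on the normoxia arrays. It was 8.53-fold higher (3.09 ± 0.24 log2, limma adjusted p 4.31e-11), and its second probe differed by 1.47. HLA-B and HLA-F were undetected in normoxia and at least 5.1-fold and 4.34-fold higher, while the second HLA-F probe was undetected throughout the 4 arrays. These genes are near-identical in sequence, so which of them gives each signal is uncertain. Picked after their values were seen, HLA-E rose by 1.32, whereas HLA-C (0.73), B2M (-0.26), TAP1 (0.02) and TAPBP (0.22) were not called.

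Other genes that went from below detection to clear signal were PPFIA4, a liprin scaffold, at 9.38 and 9.03 against 4.47 and 4.71 (at least 17.6-fold), DUSP5P (at least 7.33-fold), SPAG4 (at least 6.06-fold) and the collagen COL23A1 (at least 4.4-fold). Of the other largest rises DPYSL4 stood at 10.55 and 10.63 against 7.42 and 7.27 (3.24 ± 0.21), RAB31, a vesicle-traffic GTPase, at 8.74 and 8.50 against 5.67 and 5.69 (2.94 ± 0.29) and CACNA1I, a T-type calcium channel, at 7.92 and 7.94 against 4.93 and 5.22 (2.85 ± 0.28). FER1L4, a long non-coding RNA, stood at 8.21 and 8.59 against 5.01 and 5.39 (3.20 ± 0.36). The groups overlapped in none of these genes, which were picked as large changes, nor in 54.7% of all genes tested.

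Among the lists, DNA replication genes had the largest share of lower members. All 36 listed genes of the origin and fork were measured, 32 were lower and none higher (7.09% of all genes tested were lower), and their median was -1.18. POLE2, a subunit of the leading-strand polymerase, stood at 6.62 and 6.61 on the 1% O2 arrays against 8.67 and 8.65 on the normoxia arrays. It was 4.13-fold lower (-2.05 ± 0.26 log2, limma adjusted p 6.27e-07). All 6 subunits of the MCM helicase were among the lower genes, MCM2 at 8.56 and 8.20 against 10.03 and 9.89, MCM4 at 9.76 and 8.72 against 10.83 and 10.13 and MCM7 at 11.64 and 11.47 against 12.47 and 12.45, with differences of -1.58, -1.24 and -0.91. The replicates of MCM4 differed from each other in both groups, yet each hypoxia array lay below both controls. Of the GINS complex GINS2 and GINS3 fell by 1.54 and 1.43, and GINS4 was undetected in hypoxia, at least 2.49-fold lower, while GINS1 was not detected on any of the 4 arrays. The fork protection gene TIPIN fell by 1.69 and its partner TIMELESS by 1.03, and the initiation factors MCM10 and CDC45L (now CDC45) by 1.68 and 1.29. PCNA, the sliding clamp, stood at 8.65 and 8.71 against 9.996 and 10.25 and fell by 1.44 ± 0.49, a call that each single left-out array ended. POLD1, POLD2 and ORC6L (now ORC6) differed by -0.24, -0.10 and 0.02 and were not called. In bulk RNA fewer cells in S phase and less RNA per cell cannot be told apart.

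**Figure D3:**
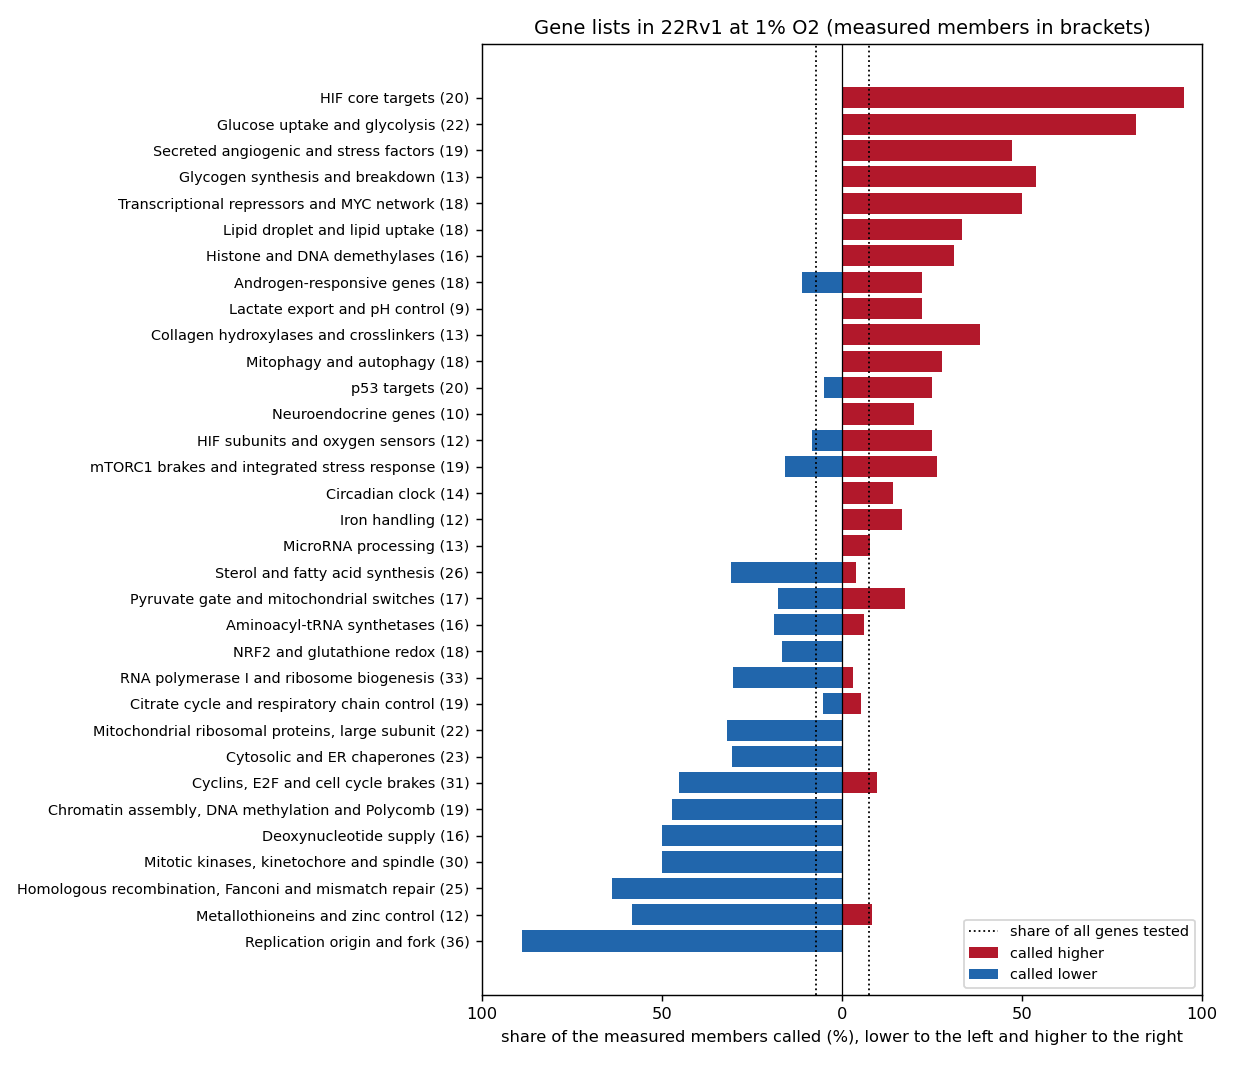
Share of the measured members of each gene list (number in brackets) that was called higher (red, to the right) or lower (blue, to the left) in 22Rv1 at 1% O2, in %. Dotted lines mark the shares among all genes tested, 7.45% higher and 7.09% lower. Core HIF targets (19 of 20 higher) and replication genes (32 of 36 lower) lie at the 2 ends.

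Genes that make and supply deoxynucleotides were lower in 8 of 16 measured, with none higher. RRM2, the S-phase subunit of ribonucleotide reductase, stood at 6.55 and 5.98 against 7.96 and 7.69 and fell by 1.56 ± 0.32, and RRM1 fell by 0.49. TYMS, which makes thymidylate, fell by 1.08 and TK1 by 0.93. The p53-induced subunit RRM2B differed by -0.26 and was not called. Without a single array 4 to 8 of these genes were lower.

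Cyclins and cell cycle regulators showed 14 lower and 3 higher genes among 31 measured (32 listed), with a median of -0.46. CCNE2, a cyclin of S-phase entry, stood at 7.17 and 6.80 on the 1% O2 arrays against 9.05 and 8.82 on the normoxia arrays and fell by 1.94 ± 0.30 (limma adjusted p 2.63e-05), and CCNE1 fell by 0.82. CDC25A, the phosphatase that activates CDK2, fell by 1.69 and CDK2 by 0.93. Of the E2F family E2F2, E2F3 and E2F7 fell by 1.15, 0.85 and 1.16, and E2F8 was undetected in hypoxia (at least 1.04-fold lower), whereas E2F1 differed by 0.02. The 3 higher genes were brakes: CDKN1C (p57) at 8.21 and 8.27 against 5.98 and 5.83 (2.34 ± 0.41), CCNG2, undetected in normoxia (at least 1.6-fold), and CDKN1A (p21), at 0.79. CDKN1A lost its call under median centring and without single arrays. CCND1 and CDKN1B differed by 0.04 and 0.12 and were not called. Without hypoxia replicate 2 the list had 8 lower and 2 higher genes, without normoxia replicate 1 it had 9 and 1, and with the replicate block 16 and 5.

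Mitotic genes were lower in 15 of 30 measured and higher in none, with a median of -0.60. CENPM, a centromere protein, stood at 9.19 and 8.79 against 10.24 and 10.22 and fell by 1.24 ± 0.21. AURKA, AURKB, BIRC5 and CDC20 fell by 0.66, 0.65, 0.78 and 0.59, and DSN1, a kinetochore subunit outside that list, by 1.72. PLK1 and TOP2A differed by 0.12 and -0.24 and were not called. With the replicate block 24 genes were lower, and without a single array 5 to 18, with 5 without hypoxia replicate 2 and 8 without normoxia replicate 1.

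Repair genes of the homologous recombination, Fanconi and mismatch pathways were lower in 16 of 25 measured (28 listed), with none higher and a median of -0.74. EXO1, an exonuclease of end resection and mismatch repair, stood at 6.91 and 6.27 against 8.38 and 8.30 and fell by 1.75 ± 0.25. BLM, the Bloom syndrome helicase, was undetected in hypoxia and at least 2.71-fold lower. BRCA1 stood at 7.32 and 6.79 against 8.33 and 8.37 and fell by 1.29 ± 0.22 (limma adjusted p 9.30e-05), with BARD1, its partner, down by 0.98. RAD54L, RAD51AP1 and XRCC3 fell by 1.03, 1.01 and 1.06, and MSH6 by 0.78. FANCD2 and PALB2 differed by -0.46 and -0.57 and did not pass (limma adjusted p 0.0872 and 0.0865). Without hypoxia replicate 2 the count of lower genes was 10, and with the replicate block 20. The checkpoint kinase CHEK1 and RBBP8, which starts end resection, were among the 20 largest falls, at -1.52 and -1.50.

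Chromatin assembly and DNA methylation genes were lower in 9 of 19 measured (20 listed), and none was higher. Both large subunits of the histone chaperone CAF-1 fell, CHAF1B at 6.94 and 6.31 against 8.38 and 8.31 and CHAF1A at 5.18 and 5.12 against 6.72 and 6.57, by 1.72 and 1.50. UHRF1, which recruits DNA methyltransferase to new strands, fell by 1.63 ± 0.34, and DNMT1, that methyltransferase, by 0.69 ± 0.13. EZH2 and SUZ12 of Polycomb fell by 0.56 and 0.43. DNMT3B, CBX5 and EED differed by -0.53, -0.54 and -0.81 and were not called.

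Genes of growth and protein production fell in part. Of 33 measured genes of RNA polymerase I and ribosome biogenesis (34 listed) 10 were lower and 1 higher, with a median of -0.27. RRP9, a component of the small nucleolar RNA particle, was undetected in hypoxia (at least 1.49-fold lower), and RRS1, NOP16, NIP7 and NOP56 fell by 0.89, 0.81, 0.76 and 0.66. Large-subunit mitochondrial ribosomal proteins were lower in 7 of 22 (13 with the replicate block, 4 without normoxia replicate 1 or hypoxia replicate 2, 3 with median centring), led by MRPL18, down by 0.86 ± 0.15. Of 16 measured aminoacyl-tRNA synthetases (20 listed) 3 were lower and 1 higher, with a median of -0.23, beside 7.09% and 7.45% of all genes tested. The lower genes YARS, IARS and EPRS (now YARS1, IARS1 and EPRS1) fell by 0.60, 0.52 and 0.40. There was 1 lower gene without normoxia replicate 1 or hypoxia replicate 2 and 7 with the block. Chaperones were lower in 7 of 23 measured (24 listed), beside 7.09% of all genes tested. HSPH1 stood at 9.05 and 8.86 against 10.11 and 9.96 and fell by 1.08, and HSPA8, DNAJA1 and HSP90AA1 fell by 0.76, 0.70 and 0.64. HSPA5, the main chaperone of the endoplasmic reticulum, differed by -0.41 (limma adjusted p 0.465). Without a single array the ribosome biogenesis list had 1 to 7 lower genes and 0 higher, and the chaperones 2 to 6 lower, each with the fewest without normoxia replicate 1.

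Stress pathways were mixed. In the mTORC1 and integrated stress response list 5 of 19 measured genes (20 listed) were higher and 3 lower. Over all genes tested 7.45% were higher and 7.09% lower. Beside DDIT4 and GDF15, PPP1R15A and TSC1 rose by 0.93 and 0.60, while DDIT3 (CHOP), CEBPG and ASNS, all known targets of ATF4 signalling, fell by 0.71, 0.65 and 0.60. ATF4, TRIB3 and ATF3 differed by -0.55, -0.39 and 0.10 and were not called. PPP1R15A and DDIT3 each lost the call without any of 3 single arrays. The list had 3 higher and 0 lower genes without normoxia replicate 1, 3 and 1 without hypoxia replicate 2, 3 and 3 under median centring, and 7 and 6 with the replicate block. Of 20 p53 targets 5 were higher and 1 lower, among them GADD45B (0.78), TP53INP1 (0.77) and AEN (-0.60). None of these p53 targets was called under median centring, and the count of higher genes was 1 whichever single array was left out. With the replicate block 3 were lower. MDM2, BBC3, FAS and SESN1 were not called, with differences of 0.33, 0.04, -0.07 and 0.44. In microRNA processing, TNRC6B was the single higher gene of 13 measured (16 listed), at 0.54, beside 7.45% of all genes tested. Its call was lost without any one of the 4 arrays and under median centring, and the replicate block gave 2 higher genes. DICER1, DGCR8 and XPO5 differed by -0.19, -0.36 and 0.01.

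Androgen-responsive genes, the hallmark of the line, were higher in 4 and lower in 2 of 18 measured genes (22 listed). Among all genes tested 7.45% were higher and 7.09% lower. The replicate block gave 7 higher, median centring 2, and leaving out 1 array 1 without normoxia replicate 1 or hypoxia replicate 2 and 2 without normoxia replicate 2. TMPRSS2 stood at 8.41 and 8.72 against 7.71 and 7.64 and rose by 0.89 ± 0.30, KLK4 and HERC3 rose by 0.41 and 0.89, and NDRG1 is counted above as a HIF target. TMPRSS2 lost its call without any one of the 4 arrays and under median centring, and HERC3 without any of 3. The lower members CENPN and UBE2C, by 0.78 and 0.66, are also genes of mitosis. KLK2, FKBP5 and FOLH1 differed by 0.44, 0.28 and -0.02 and were not called. Of 10 measured neuroendocrine genes (18 listed) SRRM4, a splicing factor of neural exons, rose by 0.94 ± 0.18, and the other higher gene was ENO2, given above with glycolysis, and the replicate block gave 4. SYP, INSM1 and FOXA2 were not detected on the 4 arrays.

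Genes used as markers of PC-3 also moved. Of 11 measured, 6 were higher at 1% O2 and none lower: LGALS1 at 12.24 and 12.34 against 10.90 and 10.73 (1.48 ± 0.17), S100A6 (1.18), VIM (0.75), CD44 (0.65), ANXA1 (0.62) and CAV1, undetected in normoxia (at least 1.02-fold). Without hypoxia replicate 2 or normoxia replicate 2 there were 3 higher genes, without either of the other arrays 4, and under median centring 2. The summed linear level of the 11 genes was 6420 and 6744 in hypoxia against 2787 and 2608 in normoxia, most of it from LGALS1, without which the sum was 1588 and 1567 against 882 and 911. For the 10 measured 22Rv1 markers the sum was 6993 and 7007 against 4593 and 4381, with KRT8 (1.03) and TMPRSS2 higher. KRT8 was the brightest, and without it the sum was 4436 and 4421 against 3302 and 3149. Of the 22Rv1 markers 6 were higher with the replicate block and 0 under median centring. For the 6 measured blood and stromal markers the sum was 362 and 389 against 291 and 332, and 1 of the 6 was called higher (0 without normoxia replicate 1 or hypoxia replicate 2). Among all genes tested 7.45% were called higher, and 1 of 6 genes is too few to set against that share. Without CD68 the sum of the blood and stromal markers was 139 and 162 against 113 and 116. AXL, PLAU and TGFBI, detected in PC-3 normoxia, were undetected on all 4 22Rv1 arrays. The part of these markers in the other results was not tested.

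The same oxygen level gave fewer calls in PC-3, 191 higher (1.16%) and 39 lower (0.237%). Of the 1224 higher genes of 22Rv1 106 were also higher in PC-3, which is 8.66% of the former and 55.5% of the latter. Of the lower genes 14 were shared, 1.2% and 35.9%. The difference between the lines was tested itself, and 376 genes passed (2.29% of those tested), 238 with the larger value in 22Rv1 (1.45%) and 138 with the smaller (0.84%). With the replicate block 1190 passed, 654 and 536. This count depends on the arrays in doubt: 589 genes passed without the 22Rv1 arrays at 0.2% O2, 5 with the 2 labels exchanged and 6 in the second deposited table. Median centring left 85 genes, 75 of them with the larger value in 22Rv1, so that the split of 238 to 138 moved. Without a single array of the 8 between 154 and 276 passed: 226, 155, 154 and 215 without PC-3 hypoxia 1, normoxia 1, hypoxia 2 and normoxia 2, and 276, 159, 170 and 193 without the same arrays of 22Rv1.

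RAB31 rose by 2.94 in 22Rv1 and stood at -0.40 in PC-3, a difference of 3.33 ± 0.41 (limma adjusted p 5.48e-06). MT3, outside the ranking of named genes since it was undetected in 22Rv1 normoxia, differed by 5.10 in 22Rv1 and 0.07 in PC-3 (limma adjusted p of the line difference 1.41e-14). ADM, SLC16A3 and PFKFB4 rose in PC-3 too, by 1.71, 0.97 and 1.65, against 4.82, 3.43 and 4.07 in 22Rv1. BHLHB2 had 0.96 in PC-3 and was not called there (limma adjusted p 0.0696). CYP1B1, an enzyme that oxidizes oestrogens and xenobiotics, had 1.89 in 22Rv1 and -0.64 in PC-3. Of 20 measured core HIF targets 10 had the larger value in 22Rv1 and none the smaller, and of 22 glycolysis genes 9. Among all genes tested 1.45% had the larger value in 22Rv1. ANGPTL4 had 3.07 in 22Rv1 and 3.84 in PC-3, a difference that did not pass (limma adjusted p 0.58). In the other direction, 11 of 36 replication genes were more negative in 22Rv1, led by POLE2 (-2.05 against -0.41), whose line difference lost its call without PC-3 normoxia replicate 1 or hypoxia replicate 2. That direction held 0.84% of all genes tested. With the 2 doubted labels exchanged, 1 gene in all had the larger value in 22Rv1 and 4 the smaller. In the second deposited table these were 0 and 6, so the list counts above do not hold in either setting. Median centring left 10 genes in all with the smaller value, fewer than the 11 replication genes. E2F7 fell by 1.16 in 22Rv1 and stood at 0.49 in PC-3, the one named gene that kept its call under every alternative. SLCO4A1, an organic anion transporter, had 1.84 in PC-3 and 0.20 in 22Rv1. With the 2 doubted labels exchanged, the other 14 named genes had limma adjusted p values between 0.0559 and 0.409.

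**Figure D4:**
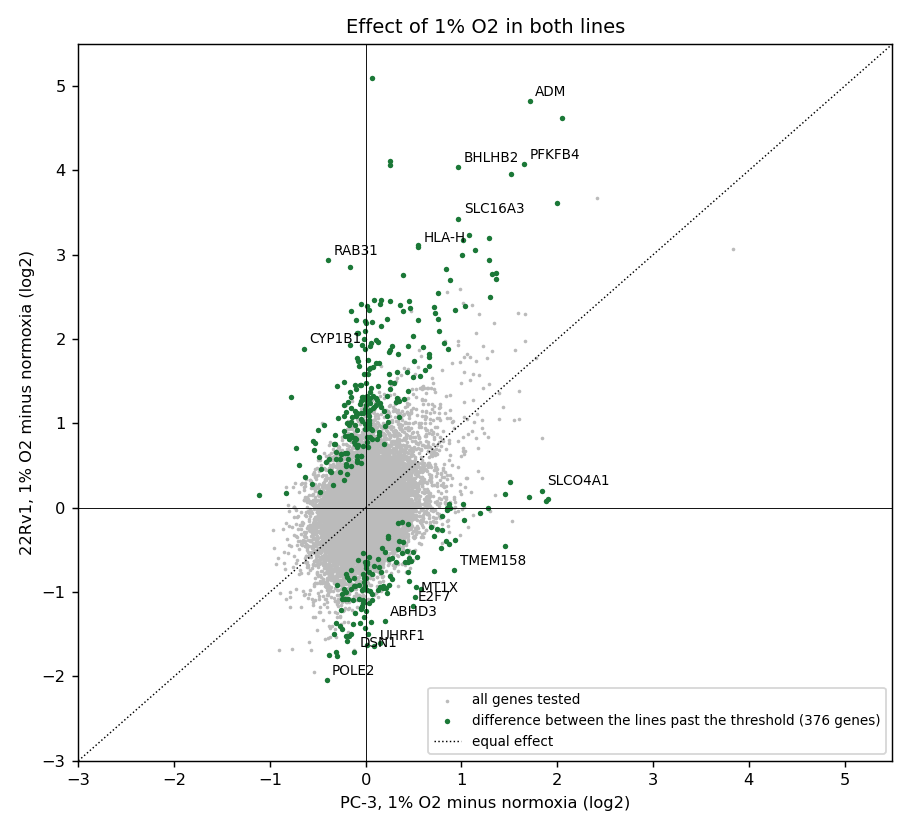
Difference between 1% O2 and normoxia (log2) in 22Rv1 (vertical) against that in PC-3 (horizontal) for each gene tested. Green points are the 376 genes whose difference between the lines passed the threshold, with 15 named genes labelled, and the dotted line marks equal effects. RAB31 lies at 2.94 in 22Rv1 and -0.40 in PC-3.

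The neighbouring oxygen levels of 22Rv1 each had normoxia samples of their own. ADM differed from its own controls by 3.72 at 2%, 4.82 at 1% and 5.33 at 0.5%. MT3 differed by 3.63, 5.10 and 5.25 at the same levels, and POLE2 by -0.90, -2.05 and -2.47. In these 3 genes the value at 1% lay between those of the levels on either side. The median of the core HIF targets was 1.98, 2.62 and 3.05, and that of the replication genes -0.54, -1.18 and -1.61. At 0.2% and 0% the replication median was smaller again, at -1.03 and -0.92. Other lists were not graded over 2%, 1% and 0.5%. Metallothioneins had medians of -0.93, -0.89 and -0.46, mitotic genes -0.37, -0.60 and -0.34, and the cyclin list -0.27, -0.46 and -0.30. At 2% O2 469 genes were higher (2.85%) and 211 lower (1.28%), and at 0.5% 2140 (13%) and 2471 (15%). Of the genes called higher at 1% 403 were also called at 2%, which is 32.9% of the 1% calls and 85.9% of the 2% calls, and 1033 at 0.5% (84.4% and 48.3%). For lower genes 157 were shared with 2% (13.5% and 74.4%) and 982 with 0.5% (84.3% and 39.7%). No single gene passed when the effects of adjacent levels were compared with each other: 0 genes for 1% against 2% and 0 for 0.5% against 1% (limma adjusted p), with 793 and 1127 genes at an unadjusted p under 0.05. The first count stayed between 0 and 2 when single arrays were left out, and the second rose to 932 without hypoxia replicate 2 at 0.5%.

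**Figure D5:**
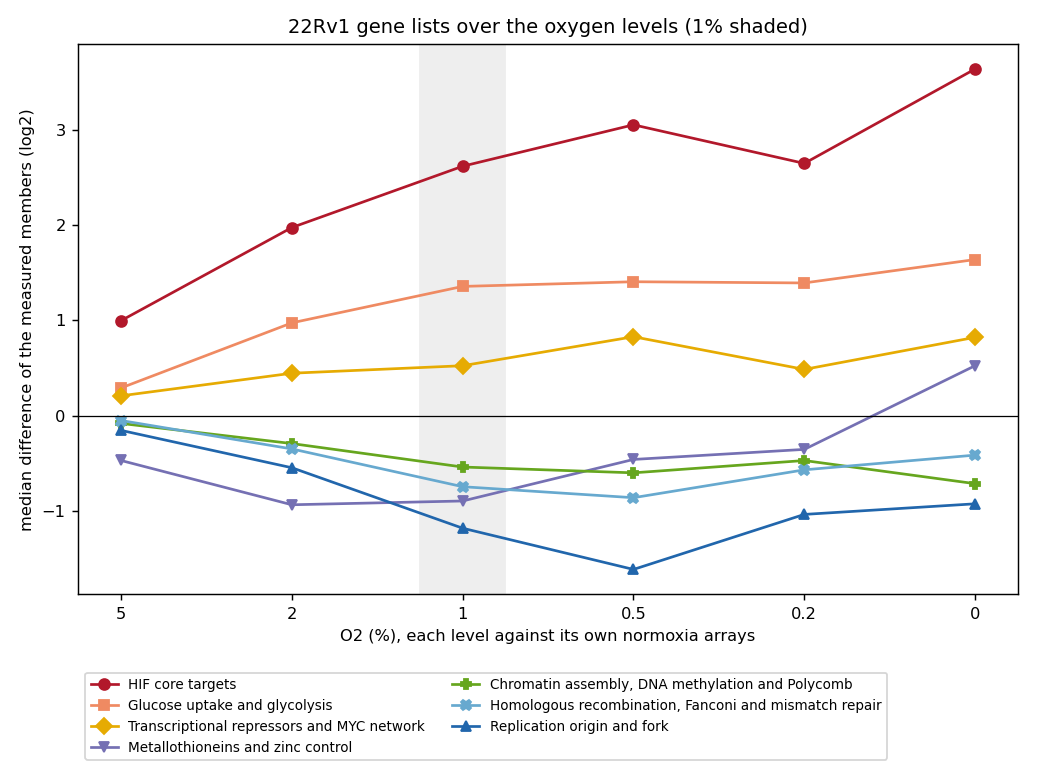
Median difference from normoxia (log2, vertical) of the measured members of 7 gene lists in 22Rv1 at each oxygen level (%, horizontal), each against its own controls, with 1% shaded. Core HIF targets go from 1.00 at 5% to 2.62 at 1%, and replication genes from -0.15 to -1.18, with -0.92 at 0%. Labels of 2 arrays at 0.2% are in doubt.

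The normoxia arrays of the 1% level were also set against the 10 normoxia arrays of the other levels in 22Rv1. No gene passed the threshold (limma), 300 had an unadjusted p under 0.05, and 2 passed without the filter on detection.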

How the data were processed

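Per the labels' protocols, total RNA came from a miRNeasy kit and was read on Illumina bead arrays, 48 in 24 groups of 2. The deposited raw table holds the mean intensity and the detection p-value of each of 47323 probes per array, and the submitters' processing notes name BeadStudio 3.1.3.0 as the export tool. A second deposited table holds normalized intensity values on a linear scale, and no source used here says how they were normalized.

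Intensities were background-corrected and quantile-normalized with neqc (limma 3.58.1 in R 4.3.3, with offset 16) and taken to log2. Figures came from matplotlib 3.10.9 under Python 3.11.15. The brightest probe over all arrays stood for each symbol, and 16438 symbols detected (p under 0.01) on at least 2 arrays were tested. Symbols are those of the array, of which 11119 are current in the RefSeq gene table, 2030 were updated through a synonym and 3289 are not in it. A model with 1 mean per group over all 48 arrays gave each contrast, with 24 residual degrees of freedom, moderated with an intensity trend and adjusted by Benjamini-Hochberg at 0.05. Genes undetected in the lower group are given as bounds against the lowest detected signal of each array. The number of arrays limits the precision, and the fit was tested on simulated data with known changes. For the 1% effect it recovered 14% of changes of 0.5, 76% of those of 1 and 100% of those of 2 (log2). For the line difference the shares were 2%, 46% and 94%. A gene that was not called can thus still hold a change of 1 or less.

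Named genes are the 20 largest rises and falls of the same sign in both replicate pairs, the 8 largest bounds each way, the 6 members with the largest difference in each list, all core HIF targets and sensors, and 8 genes each way for the line difference, and symbols such as C followed by orf were passed over where the gene table does not know them. Further list members and the HLA genes outside this rule were named after their values were seen. Some genes that the rule or the lists hold are not reported here. The members and lists were chosen with earlier results of these data known. Deviations of same-numbered hypoxia and normoxia samples from their group means correlated at every level of both lines (0.32 at 1% O2 in 22Rv1, 0.18 to 0.47 over all). With same-numbered controls of the other levels the mean correlation was 0.21 at 1% O2 in 22Rv1 and 0.12 to 0.35 over all. Much of the correlation was thus not particular to the pair, though the own pair had the higher value at every level of both lines. The gap was largest for 22Rv1 at 0.2% O2, at 0.45 against 0.14. The reported model left the pairing out, and the replicate block was an alternative. The blocked value is given where the block changes a count by over 1.5 times. Alternatives were the block, array weights, no background correction, median centring, the second table, other filters, the mean of probes, fewer arrays in the fit, no trend, another offset, pooled controls and single arrays left out. The 0.2% arrays of 22Rv1 were also left out, and, chosen after seeing the data, the 2 doubted arrays were exchanged. Promoters were matched by symbol to a RefSeq table (GRCh38.p14).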

Additional observations from a re-analysis of the deposited data

Results flagged for a closer look

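The effect of 1% O2 differed between 22Rv1 and PC-3 in 376 genes by the test of the difference itself (limma adjusted p under 0.05). Among 15 named genes, 7 had the larger value in 22Rv1: RAB31 by 3.33 ± 0.41, ADM by 3.11 ± 0.51, BHLHB2 by 3.07 ± 0.38, HLA-H by 2.54 ± 0.34, CYP1B1 by 2.53 ± 0.41, SLC16A3 by 2.46 ± 0.27 and PFKFB4 by 2.42 ± 0.31 (log2, SE). The other 8 had the smaller value in 22Rv1. UHRF1 differed by -1.72 ± 0.48, POLE2 by -1.64 ± 0.36 and DSN1 by -1.60 ± 0.30, all with a fall in 22Rv1. TMEM158 differed by -1.66 ± 0.30, E2F7 by -1.65 ± 0.24 and MT1X by -1.58 ± 0.29, with values of opposite sign in the 2 lines. SLCO4A1 differed by -1.64 ± 0.33 and ABHD3 by -1.54 ± 0.34. Of 22 alternatives, UHRF1 lost its call in 14, among them each of the 8 arrays left out singly and median centring. POLE2 and ABHD3 lost it in 5 and DSN1 and MT1X in 3, median centring among them, and the other 10 genes in at most 2. The cause of these differences was not tested. Groups of 2 arrays are too small for a test of outlying samples.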

How the results depend on the processing

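Of 173 called genes among the 224 named for the 1% effect, 109 kept the call in all 19 alternatives, 64 lost it in at least 1, 56 of these without a single array, and no called gene changed sign. The count of 2389 moved to 3944 with the replicate block, 1063 with median centring, 1465 with the 22Rv1 arrays alone and 4573 with pooled controls, and to between 1079 and 1751 without single arrays. Median centring shifted the median of all genes to -0.09 and left 472 higher and 591 lower genes. The 376 genes of the line difference moved to 1190 with the block, 738 with array weights, 85 with median centring, 6 in the second table, 246 without the filter, 1913 with pooled controls, 589 without the 0.2% arrays, 5 with 2 labels exchanged, and 154 to 276 without single arrays. For 1% against 2% the count of 0 became 3 with the block, 9 with array weights, 3 without background correction, 3 without the trend, 3 with offset 50, 12 without the 0.2% arrays, 85 with pooled controls and 0 to 2 without single arrays. For 0.5% against 1% it became 2 without the filter, 1 without the 0.2% arrays, 462 with pooled controls and 0 to 932 without single arrays. The control comparison became 2 without the filter and 0 to 1 without single arrays, and a block could not be fitted there. Values that changed sign, none of them called, were SIAH1 (-0.21 with median centring), EGLN2 (-0.24 with median centring, -0.022 with pooled controls), RORA (-0.067 without the filter), HIF3A (0.069 with pooled controls) and FBXL5 (0.0015 with pooled controls). Without single arrays the sign changed within the ranges of SIAH1 (-0.10 to 0.17), EGLN2 (-0.093 to 0.11), HIF3A (-0.20 to 0.11), ARNT (-0.082 to 0.41), ARNT2 (-0.28 to 0.18), CA9 (-0.079 to 0.068), CA8 (-0.020 to 0.69), SLC4A2 (-0.53 to 0.0021), CARS (-1.04 to 0.13) and SCG3 (-0.45 to 0.14). The causes were not tested. Groups hold 2 arrays each, and probes not above background have only bounds.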

Other observations

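Several genes outside the lists also rose at 1% O2 in 22Rv1 and were picked after their values were seen. CYP1A1 and CYP1B1, which oxidize xenobiotics and oestrogens, stood at 8.25 and 8.07 against 5.45 and 6.02 and at 7.27 and 7.42 against 5.44 and 5.47 (hypoxia against normoxia, log2). They rose by 2.42 ± 0.31 and 1.89 ± 0.29, and neither gene had overlapping groups, nor did 54.7% of all genes tested. FOS, an immediate early transcription factor, stood at 7.81 and 7.67 against 5.80 and 5.36 and rose by 2.16 ± 0.36, and WNT3A, a secreted signalling protein, rose by 2.45 ± 0.21. HBA1, which encodes alpha globin, was detected only in hypoxia among the 4 arrays, at 6.85 and 6.91 against 5.03 and 4.98, and was at least 3.51-fold higher. HBA2, near-identical in sequence, differed by 2.07, so the 2 globin genes cannot be told apart.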
